A study of Mus musculus with 7 samples.

Results

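The Period genes (Per1, Per2 and Per3), the cryptochrome genes (Cry1 and Cry2) and Ciart encode the repressors of the circadian clock loop. These 6 genes were taken by symbol from the 55487 genes of a count table of the suprachiasmatic nucleus (SCN), the seat of the master clock in the hypothalamus. Advanced glaucoma was represented by 3 libraries (scn_glauc_152, scn_glauc_153 and scn_glauc_154) from DBA2J mice, which carry a spontaneous Gpnmb mutation and develop raised eye pressure and retinal damage. The control group was 4 libraries (scn_cont_565, scn_cont_567, scn_cont_568 and scn_cont_570) from DBA/2J-Gpnmb+SjJ mice, which lack that mutation on the same strain background. WT is the labelled genotype of every library, and age was not given in the sources used here. All mice were kept in a 12 h light and 12 h dark cycle, but the hour at which the tissue was taken was not given in the sources used here. A difference in level and a difference in daily phase therefore cannot be told apart.

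In the clock loop, the CLOCK and BMAL1 proteins (BMAL1 is encoded by Arntl) bind E-box sequences and switch on the Period and cryptochrome genes. The PER and CRY proteins accumulate, enter the nucleus together and shut off their own activators, and their breakdown starts the next cycle. CIART, also called CHRONO, is a further repressor that binds BMAL1. In the SCN of mice under a light cycle, Per1 and Per2 transcripts peak in the day, Cry1 transcripts peak later, and Arntl transcripts peak in the night. Light at night induces Per1 and Per2 through CREB, which binds the cAMP response element (CRE).

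The promoter stretches that hold elements of this loop are shown because they are the sequence that members have in common or do not share. RefSeq promoters of build GRCm38.p6 were found for 5 of the 6 members (Per1, with 2 starts, Per3, Cry1, Cry2 and Ciart), and the 250 bases before each start were searched on both strands. The motifs were the E-box CACGTG, the related E-prime box CACGTT, the D-box TTATGTAA, the CRE TGACGTCA with its core TGACG, and the ROR element TAGGTCA. The core TGACG lies inside the full CRE. The stretches below run 5′ to 3′ along the gene, with the motif letters in capitals.
Per1 first start (chr11:69098699-69098808, plus strand): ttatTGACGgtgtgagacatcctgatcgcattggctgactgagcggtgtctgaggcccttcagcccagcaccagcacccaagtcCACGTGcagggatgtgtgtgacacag
Per1 second start (chr11:69100000-69100044, plus strand): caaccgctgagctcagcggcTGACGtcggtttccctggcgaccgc
Per3 (chr4:151044796-151044890, minus strand): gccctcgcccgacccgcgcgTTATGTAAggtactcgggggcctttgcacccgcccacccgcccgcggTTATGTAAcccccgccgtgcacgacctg
Cry1 (chr10:85185055-85185153, minus strand): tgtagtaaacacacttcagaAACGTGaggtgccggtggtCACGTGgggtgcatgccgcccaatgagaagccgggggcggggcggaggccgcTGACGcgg
Cry2 (chr2:92434210-92434298, minus strand): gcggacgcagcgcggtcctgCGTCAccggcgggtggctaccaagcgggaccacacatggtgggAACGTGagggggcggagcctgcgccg
Ciart (chr3:95882247-95882364, minus strand): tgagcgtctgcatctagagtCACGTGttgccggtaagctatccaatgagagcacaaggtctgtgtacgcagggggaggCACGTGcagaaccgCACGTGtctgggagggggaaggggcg

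The E-box was present in the first Per1 promoter (1 match), in Cry1 (1 match) and in Ciart (3 matches). Of 32851 RefSeq promoters searched over the same length, 6.02% held at least 1 E-box and 0.0609% held 3 or more. The E-prime box was present in Cry1 and Cry2, and in 3.85% of all promoters. Per3 alone of the members searched held the D-box, the site of DBP and its relatives, and it held 2 of them, against 0.819% of all promoters with at least 1 and 0.0183% with 2 or more. The CRE core was present in both Per1 promoters, Cry1 and Cry2, and in 17.8% of all promoters. No member promoter held the full CRE or the ROR element in this window, against 1.55% and 2.23% of all promoters. A match describes letters only.

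The libraries held 2174456 to 5285093 counts, and the members had 31 to 324 counts each per library. The edgeR quasi-likelihood test called 66 of 14020 genes (0.471%) at an adjusted p under 0.05, of which 13 (0.0927%) were higher and 53 (0.378%) lower in advanced glaucoma. Of the calls 80.3% were thus lower, against 53.5% of the 202 calls with no filter on low counts, 94.1% of the 17 calls with the oligodendrocyte marker mean as a covariate, and 65.9% (without scn_cont_567) to 85.7% (without scn_glauc_154) with a library left out. The labelled tissue was checked with marker lists. Of 15 tested SCN markers, 11 were lower and 0 higher in advanced glaucoma, and their mean log2 CPM relative to the control mean was -2.27 to -1.90 in advanced glaucoma and -0.25 to 0.17 in control. Markers of neighbouring hypothalamic nuclei had 1 higher of 15 tested (Nkx2-1, a call lost without scn_glauc_154, without scn_cont_565 and with the oligodendrocyte covariate, at log2 fold changes of 1.06, 1.17 and 0.88 against 1.18), and Kiss1 was at 0 in every library. Of these 15, 11 had a positive log2 fold change (median 0.60), and their mean log2 CPM relative to the control mean was 0.18 to 1.02 in advanced glaucoma and -0.49 to 0.54 in control. Nkx2-1 and 3 further genes, chosen after their values were seen, were higher in advanced glaucoma without overlap, against 8.02% of all genes tested without overlap in either direction. Pmch, which encodes melanin-concentrating hormone, was at 202 to 1331 CPM in advanced glaucoma and 11.9 to 25.3 CPM in control (adjusted p = 0.184 by edgeR), and Ghrh and Fezf1 had adjusted p values of 0.215 and 0.380 by edgeR. The part of these markers in the member levels was not tested. Of 12 oligodendrocyte and optic chiasm markers none passed, but all 12 had a negative log2 fold change (median -0.53). Their mean log2 CPM relative to the control mean was -1.19 to -0.039 in advanced glaucoma and -0.25 to 0.13 in control. Their summed levels were 2215 to 4706 CPM in advanced glaucoma and 4113 to 5270 CPM in control. Of 10 astrocyte markers 1 was called lower (Aqp4, log2 fold change -0.62, a call lost at -0.52 without scn_glauc_152 and at -0.64 with that covariate, where the SE was 0.159 against 0.115). The summed levels of the 10 were 3887 to 4120 CPM in advanced glaucoma and 4194 to 4759 CPM in control. Of the 10, 8 had a negative and 2 a positive log2 fold change (median -0.24). Their mean log2 CPM relative to the control mean was -0.39 to -0.27 in advanced glaucoma and -0.13 to 0.11 in control. Gfap had the lowest log2 fold change of them, -1.81, and was not called (adjusted p = 0.366 by edgeR). None of 10 microglia, 8 endothelium and 7 ependyma and choroid plexus markers passed. In a tissue sample, fewer cells of a type and less RNA per cell cannot be told apart.

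None of the 6 repressor genes passed the test, against 0.471% of all genes tested. Their log2 fold changes, advanced glaucoma over control, were negative for 3 (Per1, Per2 and Ciart) and positive for 3 (Per3, Cry1 and Cry2), with a median of -0.11 against -0.0071 over all genes tested. At an unadjusted p under 0.05 there was 1 member, Per2, against 8.20% of all genes. For each of the 6, the libraries of the groups overlapped in level, while 8.02% of all genes tested had groups that did not overlap. Levels are given as CPM, which are counts relative to the TMM-scaled size of the library.

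**Figure D1:**
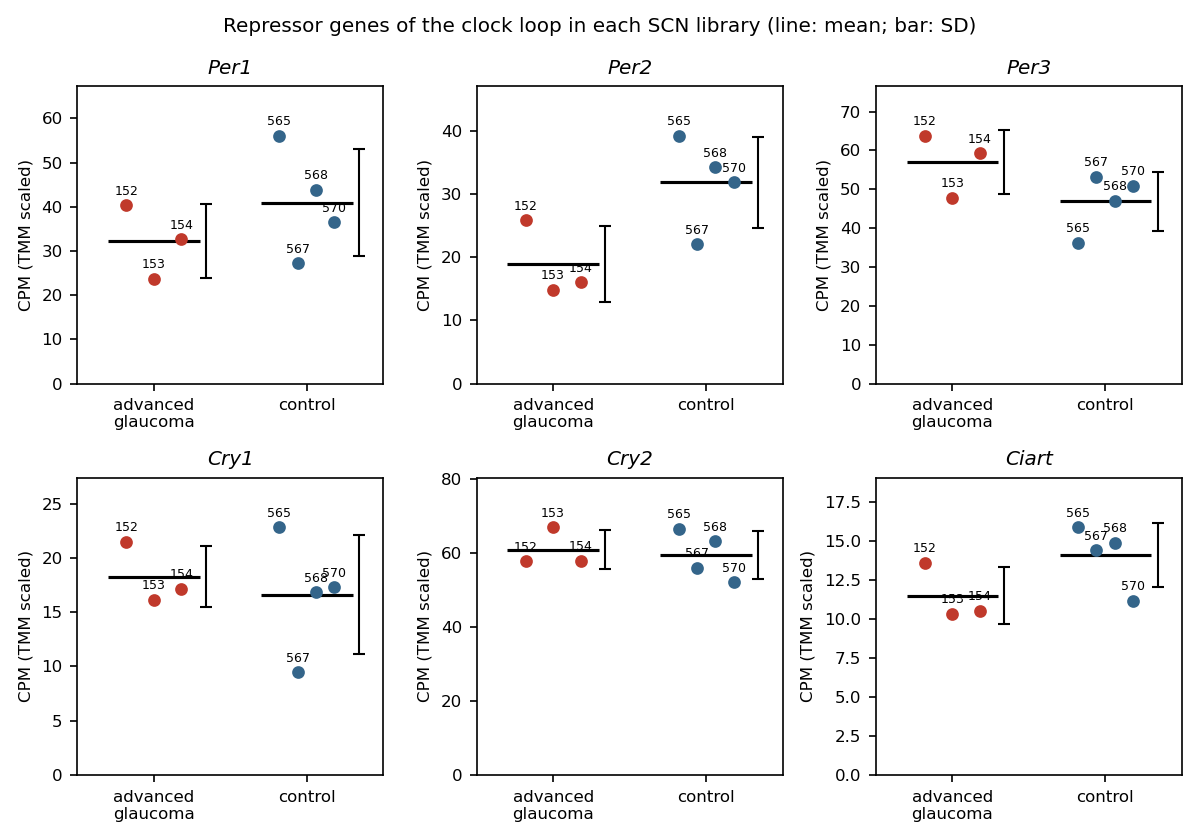
CPM of each repressor gene (y axes, from 0) in the 3 advanced glaucoma libraries (red, left) and the 4 control libraries (blue, right), each point labelled with its library number, with the group mean as a line and the SD as a bar. Per2 lies at 14.9 to 25.8 CPM in advanced glaucoma and at 22.0 to 39.2 CPM in control, and the groups overlap in every panel.

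Per2, the Period gene whose loss in mice shortens and then abolishes free-running rhythms, had the widest separation of the members. Per2 (ENSMUSG00000055866, chromosome 1, 91415982 to 91459324, GRCm38) was at 25.8, 14.9 and 16.1 CPM in advanced glaucoma (scn_glauc_152, scn_glauc_153 and scn_glauc_154), and at 39.2, 22.0, 34.2 and 31.9 CPM in control (scn_cont_565, scn_cont_567, scn_cont_568 and scn_cont_570). Only scn_glauc_152 reached into the control range, where it stood above scn_cont_567 alone. The mean was 18.9 ± 6.004 CPM in advanced glaucoma (SD, n = 3) and 31.8 ± 7.21 CPM in control (SD, n = 4). The log2 fold change was -0.73 (SE 0.212, 95% interval -1.16 to -0.29), with an unadjusted p of 0.00223 and an adjusted p of 0.185 by edgeR. The adjusted p ran from 0.0286 to 0.892 over the alternatives, and it was under 0.05 with no filter on low counts (0.811% of genes called) and without scn_glauc_152 (log2 fold change -1.03, adjusted p = 0.0394 by edgeR, 0.442% of genes called). The 0.892 by edgeR came with the oligodendrocyte marker mean as a covariate (log2 fold change -0.66, SE 0.316). Without scn_glauc_154 the log2 fold change was -0.63 (adjusted p = 0.610 by edgeR). SCN markers were lower in the same 3 libraries, and their part in the Per2 level was not tested.

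Per1, the Period gene that light induces fastest, ranged widely inside each group. Per1 (ENSMUSG00000020893, chromosome 11, 69095217 to 69109960) was at 40.4, 23.7 and 32.7 CPM in advanced glaucoma (scn_glauc_152, scn_glauc_153 and scn_glauc_154), and at 56.1, 27.2, 43.9 and 36.6 CPM in control (scn_cont_565, scn_cont_567, scn_cont_568 and scn_cont_570). The advanced glaucoma library scn_glauc_152 lay above 2 of the 4 control libraries, scn_cont_567 and scn_cont_570. The mean was 32.3 ± 8.36 CPM in advanced glaucoma (SD, n = 3) and 40.9 ± 12.2 CPM in control (SD, n = 4). The log2 fold change of -0.32 (SE 0.214, 95% interval -0.77 to 0.13) had an adjusted p of 0.783 by edgeR. It was -0.52 without scn_glauc_152, -0.13 without scn_glauc_153 and -0.16 without scn_cont_565. The interval of the ratio of advanced glaucoma to control ran from 0.588 to 1.10.

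Per3, a Period gene that is not needed for the core rhythm in mice, had its point estimate on the other side. It was at 63.8, 47.8 and 59.3 CPM in advanced glaucoma (scn_glauc_152, scn_glauc_153 and scn_glauc_154), and at 36.2, 53.3, 47.1 and 51.0 CPM in control (scn_cont_565, scn_cont_567, scn_cont_568 and scn_cont_570). Library scn_glauc_153 stood inside the control range, and the other two advanced glaucoma libraries stood above every control library. The mean was 57.0 ± 8.25 CPM in advanced glaucoma (SD, n = 3) and 46.9 ± 7.54 CPM in control (SD, n = 4). The log2 fold change was 0.26 (SE 0.142, 95% interval -0.030 to 0.56, adjusted p = 0.699 by edgeR). It was 0.17 without scn_glauc_152, 0.38 without scn_glauc_153 and 0.085 with the oligodendrocyte covariate. Per3 (ENSMUSG00000028957, chromosome 4, 151003652 to 151044665) lies inside Camta1 on the same strand, with 0 exonic bases in common, and Camta1 had 840 to 2486 counts per library, so reads from Camta1 introns could fall in Per3.

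Cry1, the cryptochrome whose loss shortens the period in mice, was close in mean between the groups. It was at 21.5, 16.2 and 17.2 CPM in advanced glaucoma (scn_glauc_152, scn_glauc_153 and scn_glauc_154), and at 22.8, 9.49, 16.9 and 17.3 CPM in control (scn_cont_565, scn_cont_567, scn_cont_568 and scn_cont_570). All 3 advanced glaucoma libraries lay inside the control range, which scn_cont_567 widened at the low end with 31 counts. The mean was 18.3 ± 2.82 CPM in advanced glaucoma (SD, n = 3) and 16.6 ± 5.48 CPM in control (SD, n = 4). The log2 fold change of Cry1 (ENSMUSG00000020038, chromosome 10, 85131700 to 85185064) was 0.16 (SE 0.233, 95% interval -0.32 to 0.65, adjusted p = 0.924 by edgeR). It was 0.025 without scn_glauc_152 and -0.022 without scn_cont_567, and up to 0.31 without scn_cont_565.

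Cry2, the cryptochrome whose loss lengthens the period in mice, was the steadiest member. It was at 57.7, 67.0 and 57.9 CPM in advanced glaucoma (scn_glauc_152, scn_glauc_153 and scn_glauc_154), and at 66.5, 56.0, 63.2 and 52.0 CPM in control (scn_cont_565, scn_cont_567, scn_cont_568 and scn_cont_570). The groups interleaved, with scn_glauc_153 highest and scn_cont_570 lowest of the 7. The mean was 60.9 ± 5.31 CPM in advanced glaucoma (SD, n = 3) and 59.4 ± 6.60 CPM in control (SD, n = 4). The log2 fold change was 0.047 (SE 0.126, adjusted p = 0.971 by edgeR), and its 95% interval of -0.21 to 0.30 was the narrowest of the 6 members. The sign turned without scn_glauc_153 (-0.028) and without scn_cont_570 (-0.017). Cry2 (ENSMUSG00000068742, chromosome 2, 92403646 to 92434043) shares 295 exonic bases with D930015M05Rik on the opposite strand, which had 0 counts in every library.

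Ciart, the BMAL1-binding repressor, rested on the fewest counts. It had 69, 48 and 38 counts in advanced glaucoma (scn_glauc_152, scn_glauc_153 and scn_glauc_154), and 32, 47, 60 and 62 counts in control (scn_cont_565, scn_cont_567, scn_cont_568 and scn_cont_570). As levels these were 13.6, 10.3 and 10.5 CPM in advanced glaucoma, and 15.9, 14.4, 14.9 and 11.2 CPM in control, where scn_cont_570 alone fell among the advanced glaucoma values. The mean was 11.5 ± 1.83 CPM in advanced glaucoma (SD, n = 3) and 14.1 ± 2.04 CPM in control (SD, n = 4). The log2 fold change of Ciart (ENSMUSG00000038550, chromosome 3, 95878503 to 95882251) was -0.26 (SE 0.237, 95% interval -0.75 to 0.22, adjusted p = 0.869 by edgeR). It was -0.41 without scn_glauc_152 and -0.19 without scn_glauc_153. The antisense gene C920021L13Rik spans Ciart without exonic overlap and had 0 to 17 counts per library.

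The spread over the libraries of one group was set beside the counting error alone, with no test. For Per1 the SD over libraries was 3.06 times the counting error in advanced glaucoma and 3.51 times in control, and for Per2 it was 2.85 and 2.32 times. For Per3 these ratios were 2.28 and 1.95, and for Cry2 they were 1.42 and 1.56. Cry1 varied at 1.37 times the counting error in advanced glaucoma and at 2.45 times in control. The SD of Ciart was 1.12 and 1.00 times the counting error. The biological coefficient of variation that edgeR fitted was 0.169 for Ciart and 0.171 for Per2, and it ran from 0.105 for Cry2 to 0.183 for Per1. The SD inside groups on the log2 scale was 0.413 for Per1, 0.379 for Per2 and 0.420 for Cry1, against a median of 0.238 over all genes tested, while those of Per3 (0.234), Cry2 (0.146) and Ciart (0.214) were under that median.

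Per1, Per2 and Cry1 had the same highest and the same lowest library inside each group. All 3 were highest in scn_glauc_152 and lowest in scn_glauc_153 among the advanced glaucoma libraries, and highest in scn_cont_565 and lowest in scn_cont_567 among the control libraries. In scn_cont_567 the levels lay below the control mean by -0.53 for Per1, -0.49 for Per2 and -0.71 for Cry1 on the log2 scale, while in scn_cont_565 they lay above it by 0.498, 0.327 and 0.511. Per3 went the other way in control, lowest in scn_cont_565 (-0.35) and highest in scn_cont_567 (0.197), but in advanced glaucoma it followed Per1, with scn_glauc_152 highest and scn_glauc_153 lowest. Ciart had the same highest libraries as Per1 in both groups and the same lowest one in advanced glaucoma, but in control it was lowest in scn_cont_570. Cry2 was also highest in scn_cont_565 in control (0.168), while in advanced glaucoma it was highest in scn_glauc_153. Library scn_cont_565 was therefore the highest control library for 5 of the 6 members. The share of all genes with these highest and lowest libraries is not given here.

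**Figure D2:**
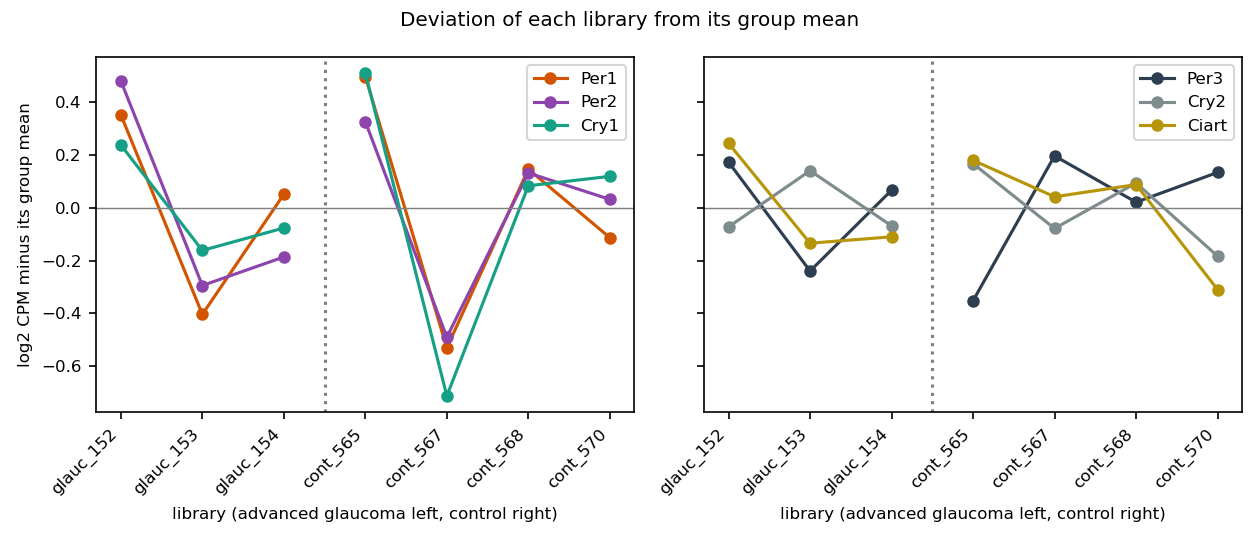
Deviation of log2 CPM from the group mean (y axis) in each library (x axis, advanced glaucoma left of the dotted line and control right of it) for Per1, Per2 and Cry1 (left panel) and for Per3, Cry2 and Ciart (right panel). The lines of Per1, Per2 and Cry1 peak at scn_glauc_152 and scn_cont_565 and dip at scn_glauc_153 and scn_cont_567, and in the right panel Ciart shares both peaks but is lowest at scn_cont_570 in control, Cry2 shares the peak at scn_cont_565, and Per3 is lowest there.

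Correlations were computed for the 15 pairs of members over the 7 libraries, and again on deviations from the group means, with exact two-sided permutation p-values adjusted over the 15 pairs. On deviations, Per1 and Per2 had r = 0.916 (exact p = 0.0139), Per1 and Cry1 had r = 0.896 (exact p = 0.0208), and Per2 and Cry1 had r = 0.890 (exact p = 0.0139). Per3 and Cry2 ran in opposite directions with r = -0.867 (exact p = 0.0208). These 4 pairs were those with an unadjusted p under 0.05, none of the 15 passed the adjustment (adjusted exact p = 0.0781 for each of the 4), and the 144 orders allow no raw p under 0.00694. A pair at that smallest p could not pass by itself over 15 pairs. The adjusted values therefore cannot decide on a single pair. The share of other gene pairs with such correlations is not given here, so these 4 pairs have no background. With each library left out in turn, r stayed at 0.850 to 0.973 for Per1 with Per2, at 0.830 to 0.949 for Per1 with Cry1, at 0.854 to 0.987 for Per2 with Cry1 and at -0.937 to -0.802 for Per3 with Cry2.

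Over all 7 libraries without regard to group, Per1 and Per2 had Pearson r = 0.860 (exact permutation p = 0.0139, adjusted 0.208) and Spearman rho = 0.929 (exact permutation p = 0.00675, adjusted 0.101). Without the libraries scn_cont_565 and scn_glauc_153, farthest from the Per1 median, r was 0.651. Per1 and Cry1 had r = 0.684 (exact permutation p = 0.0813, adjusted 0.407) and rho = 0.750 (exact permutation p = 0.0663, adjusted 0.249), with r = 0.806 without the 2 farthest libraries. For Per2 and Cry1, r was 0.374 (exact permutation p = 0.447, adjusted 0.745) and rho was 0.607 (exact permutation p = 0.167, adjusted 0.5), with r = 0.701 without the 2 farthest from the Per2 median. The value on deviations (0.890) was thus above that over all libraries for Per2 and Cry1, and this difference was not tested. For Per3 and Cry2, r was -0.615 (exact permutation p = 0.140, adjusted 0.421) and rho was -0.571 (exact permutation p = 0.200, adjusted 0.5), with r = -0.505 without the 2 farthest from the Per3 median. None of the 15 pairs passed the adjustment over all libraries, and all values share the library, its depth and its dissection.

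**Figure D3:**
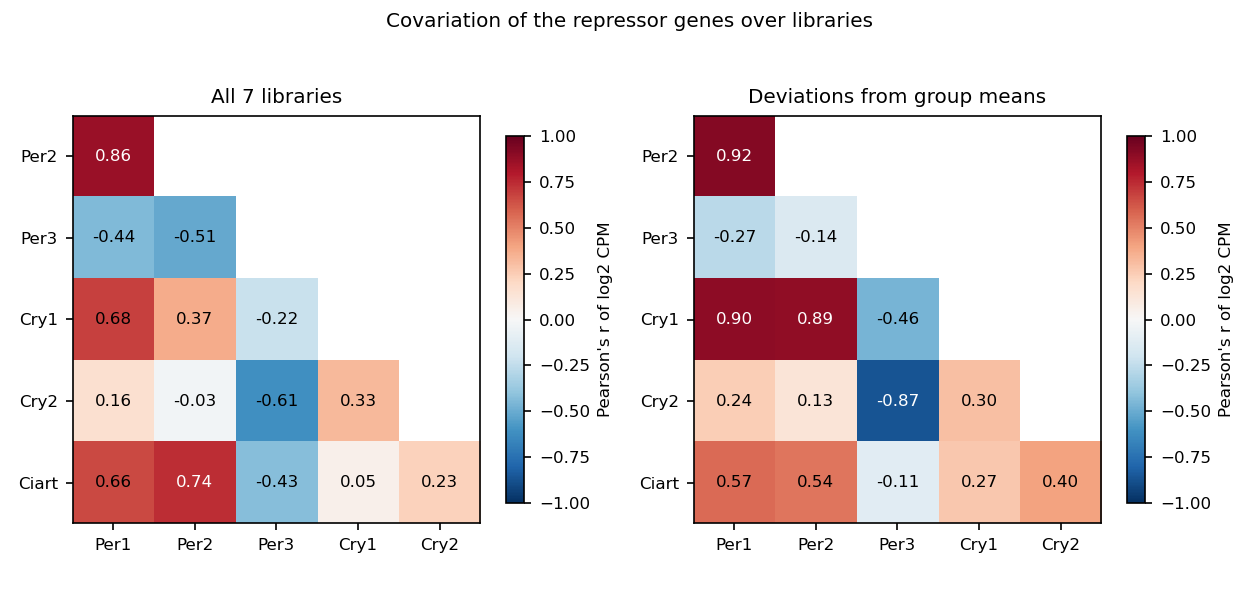
Pearson's r of log2 CPM for each pair of repressor genes, over all 7 libraries (left) and on deviations from the group means (right), with colour from -1 (blue) to 1 (red) and the value in each cell. Per1, Per2 and Cry1 form the block of 0.92, 0.90 and 0.89 on the right, and Per3 with Cry2 is at -0.87.

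Apart from the prior count of 2 in the log2 CPM, scaling cancels in a ratio inside a library. Between the groups 7 ratios were compared by exact permutation (two-sided, 35 splits), whose smallest possible p is 0.0286. The ratios of Per2 to Per1, Per3 and Cry1 were lower in every advanced glaucoma library than in any control library, but none passed the adjustment. A ratio at the smallest possible p cannot pass by itself over 7 ratios. The adjusted p therefore cannot decide on a single separated ratio. All of the separated ratios share Per2 and are not independent of each other. The log2 ratio of Per2 to Cry1 was 0.26, -0.12 and -0.093 in advanced glaucoma (scn_glauc_152, scn_glauc_153 and scn_glauc_154), and 0.77, 1.17, 1.00 and 0.86 in control (scn_cont_565, scn_cont_567, scn_cont_568 and scn_cont_570). No advanced glaucoma library reached the control range. The means were 0.017 ± 0.211 in advanced glaucoma (SD, n = 3) and 0.951 ± 0.177 in control (SD, n = 4), a difference of -0.93 (exact p = 0.0286, adjusted over the 7 ratios 0.100). Of all tested genes set over Cry1 in the same way, 2.69% were lower in advanced glaucoma without overlap.

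The log2 ratio of Per2 to Per1 was -0.64, -0.66 and -1.003 in advanced glaucoma (scn_glauc_152, scn_glauc_153 and scn_glauc_154), and -0.51, -0.30, -0.35 and -0.19 in control (scn_cont_565, scn_cont_567, scn_cont_568 and scn_cont_570). The groups again did not overlap. The difference of means was -0.42 (exact p = 0.0286, adjusted 0.100, n = 3 and n = 4), and 0.314% of all tested genes set over Per1 were lower without overlap. The log2 ratio of Per2 to Per3 averaged -1.60 ± 0.285 in advanced glaucoma and -0.57 ± 0.565 in control (SD, n = 3 and n = 4; exact p = 0.0571, adjusted 0.133). Its groups did not overlap, with scn_glauc_152 at -1.29 next to scn_cont_567 at -1.25, and 10.4% of all tested genes set over Per3 were lower without overlap.

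Against Arntl, the loop gene of opposite daily phase, no ratio separated the groups. The difference of the log2 ratio, advanced glaucoma minus control, was -0.77 for Per2 to Arntl (exact p = 0.143, adjusted 0.250), -0.34 for Per1 (exact p = 0.371, adjusted 0.433), -0.30 for Ciart (exact p = 0.314, adjusted 0.433) and 0.17 for Cry1 (exact p = 0.571, adjusted 0.571). Arntl itself was at 18.9, 21.3 and 26.9 CPM in advanced glaucoma (scn_glauc_152, scn_glauc_153 and scn_glauc_154), and at 35.7, 18.1, 20.1 and 17.5 CPM in control (scn_cont_565, scn_cont_567, scn_cont_568 and scn_cont_570). Library scn_cont_565 was thus highest in control for Arntl as well as for every member other than Per3. The Pearson r with Arntl over the 7 libraries ran from -0.596 for Per3 to 0.595 for Cry2, and none of the 6 members passed adjustment over the 6 (smallest adjusted exact permutation p = 0.387 for Pearson and 0.205 for Spearman). The 2 libraries farthest from the median of each member were also left out, and these were not the same libraries for every member. The sign of r with Arntl then turned for 3 members, to 0.543 for Per3, to -0.062 for Per1 (0.499 over all 7) and to -0.31 for Cry1 (0.509 over all 7). Each of these 3 values over all 7 thus rests on the libraries left out for that member. On deviations from the group means, r with Arntl was -0.751 for Per3 (exact permutation p = 0.0972, adjusted over the 6 members 0.542).

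**Figure D4:**
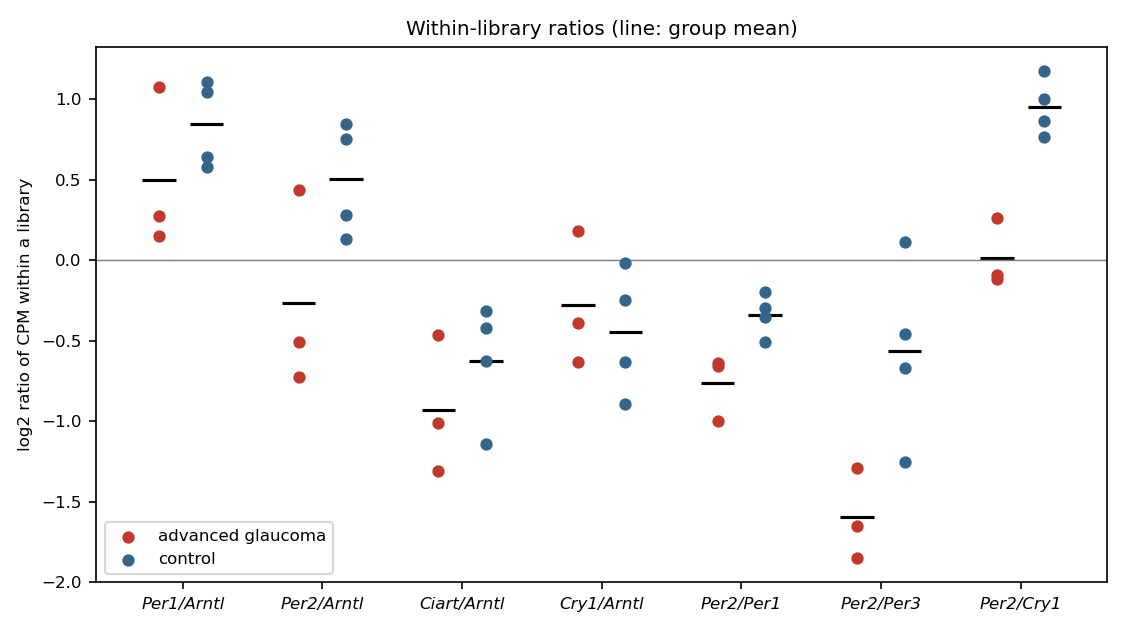
Log2 ratio of the CPM of 2 genes within a library (y axis) for 7 gene pairs (x axis), with advanced glaucoma libraries in red on the left and control libraries in blue on the right of each pair and the group mean as a line. The groups do not overlap for Per2/Per1, Per2/Per3 and Per2/Cry1, and they overlap for the 4 ratios to Arntl.

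Most genes that act with the repressors did not pass the test. Across the 8 lists of loop and pathway genes, 67 of 69 were tested (Egr2 and Dusp4 fell under the count filter), 3 were lower (against 0.378% of all genes), 0 were higher, and the median log2 fold change was -0.0017. Of the 4 activators none passed. Arntl had a log2 fold change of 0.018 (95% interval -0.44 to 0.48) and Clock, which encodes its partner, one of -0.15 (95% interval -0.39 to 0.080). Npas2, which can stand in for CLOCK, and Arntl2, a BMAL1 relative, had log2 fold changes of 0.66 and 0.62 (adjusted p = 0.617 and 0.691 by edgeR).

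Of 5 ROR and REV-ERB receptors, which drive and repress Arntl, 1 was lower (median log2 fold change -0.52). It was Rora, at 78.2, 72.6 and 69.5 CPM in advanced glaucoma (scn_glauc_152, scn_glauc_153 and scn_glauc_154), and at 169, 143, 167 and 173 CPM in control (scn_cont_565, scn_cont_567, scn_cont_568 and scn_cont_570), with an adjusted p of 3.31e-07 by edgeR, and it passed under all 14 alternatives. Of 4 genes for PAR bZIP factors and their competitor NFIL3 none passed (median -0.072). Dbp and Hlf, which encode activators that bind D-box sequences, had log2 fold changes of -0.38 and -0.28 (adjusted p = 0.257 and 0.575 by edgeR). The other E-box repressors, Bhlhe40 and Bhlhe41, had -0.14 and 0.077 (adjusted p = 0.893 and 0.949 by edgeR).

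None of 16 kinases, phosphatases, ubiquitin ligases and deubiquitinases that set the life of PER and CRY proteins passed, with a median log2 fold change of 0.021. The lowest p values were those of Fbxw11, a ligase subunit for PER, at 0.23, and Usp7, a deubiquitinase of CRY, at -0.24 (adjusted p = 0.519 and 0.595 by edgeR). None of 13 partners of the PER and CRY complex passed (median 0.047), with Ddx5, an RNA helicase, at 0.079 and Wdr5, a histone methylation factor, at 0.14. Of 8 genes of the CREB pathway that induces Period genes none passed (median 0.089). Crtc1, a CREB coactivator, had a log2 fold change of 0.29, and Sik1, the kinase that restrains it, one of -1.01 with levels of only 1.94 to 3.74 CPM in advanced glaucoma and 3.22 to 9.43 CPM in control (adjusted p = 0.517 and 0.526 by edgeR). Of 15 tested light-induced immediate early genes, which share the CREB route with Per1, 2 were lower and 0 higher (median -0.28). Fos was at 24.04, 19.6 and 21.0 CPM in advanced glaucoma (scn_glauc_152, scn_glauc_153 and scn_glauc_154), and at 41.2, 39.5, 43.6 and 44.5 CPM in control (scn_cont_565, scn_cont_567, scn_cont_568 and scn_cont_570), with an adjusted p of 0.00160 by edgeR (2.77e-05 to 0.116 over the alternatives). Fos had a log2 fold change of -0.97 (SE 0.157), and with the oligodendrocyte marker mean as a covariate it was -0.98 (SE 0.225), where the call was lost (adjusted p = 0.116 by edgeR). The activity-induced receptor gene Nr4a3 averaged 7.64 ± 2.32 CPM in advanced glaucoma and 19.0 ± 3.88 CPM in control (SD, n = 3 and n = 4), with an edgeR adjusted p of 0.0176. Its log2 fold change was -1.26, and the call was lost at -1.03 with that covariate, at -1.05 without scn_glauc_154 and at -1.21 without scn_cont_567 (adjusted p = 5.91e-04 to 0.615 over the alternatives by edgeR, DESeq2 and limma).

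**Figure D5:**
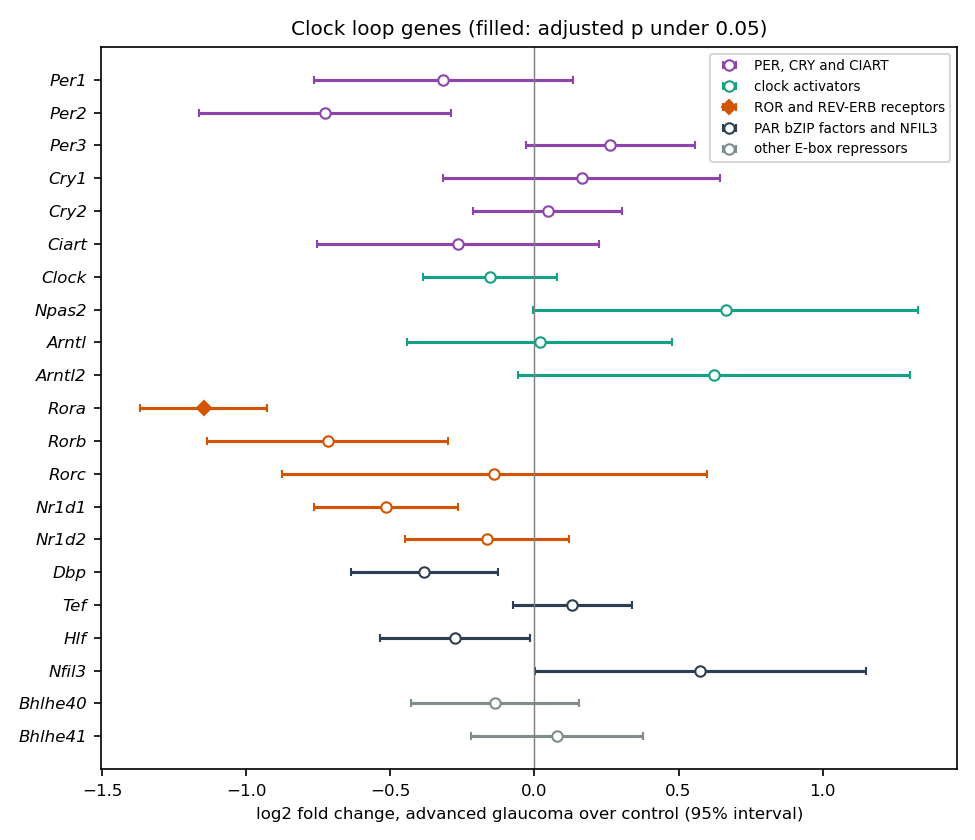
Log2 fold change of advanced glaucoma over control (x axis, with 95% intervals) for the 6 repressor genes and 15 other clock loop genes (y axis), coloured by list, with filled diamonds for an adjusted p under 0.05 and open circles otherwise. Rora is the filled one, and among the repressors only the interval of Per2 (-1.16 to -0.29) leaves out 0.

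The genes whose pattern over the 7 libraries was most like a member were taken from 9859 named genes with a mean of at least 10 CPM. For Per2 these were Mccc2 (r = 0.990), Ftl1 (r = 0.979) and Ccn3 (r = 0.978), and for Per1 they were Celf6 (r = 0.988), Btg1 (r = 0.985) and Pcbd2 (r = 0.982). Cry1 was most like Bbip1 (r = 0.990), Tmem192 (r = 0.979) and Sptlc1 (r = 0.964). Per3 was most like Ncbp3, Syt6 and Hspa2 (r = 0.987, 0.987 and 0.983), and Ciart most like Cct3, Prex2 and Swt1 (r = 0.969, 0.958 and 0.953). For these 5 members, between 27 and 65 genes had r over 0.9, no other repressor was in a top 3, and none of the 15 genes named here passed the test between the groups. The r values named are the highest of 9859 over only 7 libraries, and they were not tested.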

How the data were processed

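Per the labels' protocols, SCN RNA was made into BRB-seq libraries (MERCURIUS kit), in which each sample's RNA is barcoded at the 3′ end. The authors deposited raw counts per Ensembl gene. The submitters' processing notes name STAR, featureCounts, HTSeq and DESeq2, with build mm10. Versions, strand setting and collapsing of molecular identifiers are not given in the sources used here, so counts may not be independent molecules, and 3′ counts of different genes were not ranked against each other. Libraries were taken as separate mice from the design text. Where they are not, p-values measure only the spread between samples.

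Symbols were found for 55141 of 55487 identifiers. Coordinates came from GENCODE M21 (GRCm38). Counts were filtered with filterByExpr, scaled by TMM and tested with edgeR 4.0.16 in R 4.3.3 by the quasi-likelihood test (robust), with group as the only term and Benjamini-Hochberg adjustment over 14020 genes. SE was derived as |log2 fold change| divided by the square root of F. Log2 CPM used a prior count of 2. Counting error is the Poisson SD of the CPM. The script was tested on simulated data. Alternatives were RLE or plain library-size scaling, no filter, a mean of at least 10 CPM, DESeq2 1.42.0, limma 3.58.1 voom with sample weights, the oligodendrocyte marker mean as a covariate, a prior count of 0.5, and leaving out each library. Named genes were the 6 members, Arntl and Clock, up to 4 called genes per list or else the 2 with the smallest p, and the 3 most alike genes per member (those for Cry2 are not reported here); of the marker lists called genes outside the SCN list, a gene at 0 and 3 genes chosen after their values were seen were named. Members and lists were chosen with earlier results of these data known.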

Additional observations from a re-analysis of the deposited data

How the results depend on the processing

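The number of genes changed was 66, and it was 202 with no filter on low counts, 17 with the oligodendrocyte marker mean as a covariate and 28 to 93 with each library left out (28 without scn_glauc_154, 33 without scn_cont_570). None of Per1, Per3, Cry1, Cry2 and Ciart passed under any alternative. The Per2 log2 fold change of -0.73 passed with no filter (-0.71, adjusted p = 0.0286 by edgeR) and without scn_glauc_152, and it ran from -1.03 to -0.57 with each library left out. With the oligodendrocyte marker mean as a covariate it was -0.66 (adjusted p = 0.892 by edgeR). The cause was not tested. The direction turned for Cry1 (-0.022 to 0.31) and Cry2 (-0.028 to 0.10) with libraries left out, and for the log2 ratio of Cry1 to Arntl (-0.063 to 0.34). It also turned for Arntl (-0.12 to 0.27 with libraries left out, -0.13 with the oligodendrocyte marker mean as a covariate) and Bhlhe41 (-0.047 to 0.15 with libraries left out). The other 6 ratios kept their direction in all 8 alternatives of each. Among correlations on deviations, the sign turned with a library left out for Per1 with Per3 (-0.817 to 0.434), Per1 with Cry2 (-0.197 to 0.735), Per2 with Per3 (-0.645 to 0.362), Per2 with Cry2 (-0.184 to 0.464, and -0.0572 with plain library size), Per3 with Cry1 (-0.721 to 0.0505), Per3 with Ciart (-0.513 to 0.403), Cry1 with Cry2 (-0.111 to 0.529), Cry1 with Ciart (-0.00545 to 0.754) and Cry2 with Ciart (-0.163 to 0.766). Of these turns, 8 came without scn_cont_565, the shallowest library. No paired analysis was possible because the groups share no replicate numbers. With 31 to 324 counts per member and library, and 3 against 4 libraries, intervals on the log2 scale were as wide as -0.75 to 0.22 for Ciart.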
